A study of Sus scrofa with 8 samples.

Results

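The phagocyte NADPH oxidase was followed in pig liver before and after a steatotic diet. Its genes were taken as the 6 rows of the expression table for CYBA, CYBB, NCF1, NCF4, RAC2 and HVCN1, out of 18103 rows in all. Of these, 5 were found by symbol, and CYBB was found by its gene number, which the table lists as GP91-PHOX and for which RefSeq gives CYBB and NOX2 as synonyms. The rule uses gene names alone.

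The phagocyte oxidase moves electrons from NADPH across a membrane onto oxygen and so makes superoxide. The catalytic chain gp91phox (CYBB) and its partner p22phox (CYBA) form the flavocytochrome b in the membrane. In a resting cell, the cytosolic subunits, among them p47phox (NCF1) and p40phox (NCF4), are held in the cytosol, and on stimulation they move to the membrane with the GTPase Rac2 (RAC2). The proton channel Hv1 (HVCN1) carries out the protons that the reaction leaves behind. In liver these genes are known chiefly from Kupffer cells, other macrophages, neutrophils and B lymphocytes, while CYBA is also used by other NADPH oxidases outside phagocytes.

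The libraries came from 8 pools of liver RNA from male Landrace x Large White pigs, each pool holding RNA of 2 pigs. A total of 4 pools represented the initial state, at 4 months of age on the control diet and sampled by biopsy. The other 4 represented steatosis, at 6 months of age and after 2 months on a diet rich in saturated fat, fructose, cholesterol and cholate and poor in methionine and choline, with liver taken after euthanasia. The study describes both groups as the same animals. Age and the way of sampling changed together with the diet, so that their parts cannot be told apart.

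Expression was given as FPKM, fragment numbers divided by transcript length and by the mapped fragments of the library, which allows levels of different genes to be compared within a library. Steatosis was compared with the initial state by limma, on log2(FPKM + 0.1), for 13175 genes that reached 0.3 FPKM in 4 or more of the 8 libraries. A gene was called when its Benjamini-Hochberg adjusted p was under 0.01 and its log2 fold change was beyond 1 in either direction. By this rule 792 genes were higher in steatosis, 6.01% of those tested, and 44 were lower, 0.334%. The log2 fold changes had a median of 0.25 over the tested genes. Median-ratio scaling, in which a library is divided by the median of its gene-wise ratios to the average library, brought this median to -0.02, a shift of 0.27. With that scaling 399 genes were higher and 86 lower, of 13151 tested. Hepatocyte markers were high in every library, with ALB between 33168 and 71003 FPKM. The sum of 8 such markers was 60350 to 91996 FPKM in the initial state and 51975 to 61651 FPKM in steatosis, with a median log2 fold change of -0.20 and 0 of 8 called. At an unadjusted p under 0.05 (limma) 0 were higher, beside 37.8% of all tested genes, and 3 lower, beside 4.13%. Among them the fibrinogen chain FGB was lower without overlap, as were 2.53% of all tested genes (log2 fold change -0.44, limma adjusted p = 0.0127). Pool 1 of the initial state stood apart, since its skeletal muscle markers summed to 2579 FPKM. The sum was 0.76, 7.73 and 19.8 FPKM in pools 2 to 4 of the initial state and 0.10 to 0.35 FPKM in steatosis.

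Both chains of the flavocytochrome rose in steatosis. CYBA (gene 397507, chr6:1015212-1021422 of Sscrofa11.1) was at 13.5, 15.4, 14.9 and 14.5 FPKM in pools 1 to 4 of the initial state. In pools 1 to 4 of steatosis it was at 48.2, 46.7, 50.9 and 43.9 FPKM. The groups stood far apart and each was tight, with a coefficient of variation of 5.40% in the initial state. The mean went from 14.6 ± 0.787 to 47.4 ± 2.92 FPKM (SD, n = 4 pools), a 3.26-fold difference, and the log2 fold change was 1.70 (SE 0.09, limma adjusted p = 4.58e-06).

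CYBB (chrX:33654656-33678346), the catalytic chain, was at 4.11, 5.19, 5.37 and 5.60 FPKM in the initial pools and at 21.7, 30.7, 22.5 and 20.5 FPKM in steatosis. Every steatosis pool was above every pool of the initial state, and pool 2 of steatosis was the highest. The mean went from 5.07 ± 0.66 to 23.9 ± 4.65 FPKM, 4.71-fold, which was the largest difference among the 6 genes, with a log2 fold change of 2.2 (SE 0.15, limma adjusted p = 2.08e-05). Of all tested genes, 99.2% had a smaller log2 fold change than CYBB and 98.1% a smaller one than CYBA. The row of CYBB includes 1 transcript that the authors assembled anew.

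The 2 cytosolic subunits, NCF1 and NCF4, were not called. NCF1, the organizer that carries the others to the membrane (gene 100134857, chr3:11820367-11834394), was at 2.07, 2.50, 2.84 and 2.03 FPKM in the initial state and at 3.8, 3.70, 3.77 and 5.27 FPKM in steatosis. The groups did not overlap, and pools 1 to 3 of steatosis lay close together with pool 4 above them. The means were 2.36 ± 0.384 and 4.14 ± 0.758 FPKM. The log2 fold change of 0.78 (SE 0.16, limma adjusted p = 0.00657) did not reach the limit of 1, and the adjusted p was 0.0171 in a fit blocked on pool number. NCF1 also includes 1 newly assembled transcript.

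NCF4, which encodes p40phox (gene 100152055, chr5:10876147-10994002), was the lowest of the 6 genes in both groups. Its level was 1.75, 1.90, 2.12 and 1.24 FPKM in the initial state and 2.18, 2.42, 2.14 and 2.37 FPKM in steatosis. The groups are separated only by the step from 2.12 to 2.14 FPKM. Its log2 fold change was 0.38 (SE 0.17, 95% interval 0.01 to 0.76, limma adjusted p = 0.114), and 0.12 with median-ratio scaling. Its span on the chromosome also contains PVALB, which reached 0.82 FPKM in pool 1 of the initial state and was listed at 0 elsewhere.

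RAC2 (gene 100621675, chr5:10553986-10571082), the Rac protein of blood cells, did not pass the test. It was at 12.8, 17.1, 20.3 and 15.5 FPKM in the initial state and at 18.2, 18.3, 15.2 and 18.4 FPKM in steatosis. No steatosis pool was above the highest pool of the initial state. The log2 fold change was 0.11 (SE 0.14, limma adjusted p = 0.594), its 95% interval ran from -0.21 to 0.42, and median-ratio scaling turned its sign to -0.17 (adjusted p = 0.393). A log2 fold change of 1, the limit of the calls, lay outside the interval. The row of RAC2 includes 2 newly assembled transcripts.

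HVCN1 (gene 100152115, chr14:32006837-32044165), the proton channel, was at 4.29, 6.93, 6.94 and 8.60 FPKM in the initial state and at 8.90, 11.13, 10.4 and 8.86 FPKM in steatosis. The groups did not overlap, with 8.60 and 8.86 FPKM as the nearest pools. The log2 fold change was 0.58 (SE 0.19, 95% interval 0.15 to 1.01, limma adjusted p = 0.0478), and with median-ratio scaling it was 0.30 (adjusted p = 0.358). One end of HVCN1 overlaps TCTN1, which lay between 3.28 and 6.08 FPKM in the initial state and between 6.72 and 8.23 FPKM in steatosis. The part of TCTN1 reads in the value of HVCN1 was not tested.

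**Figure D1:**
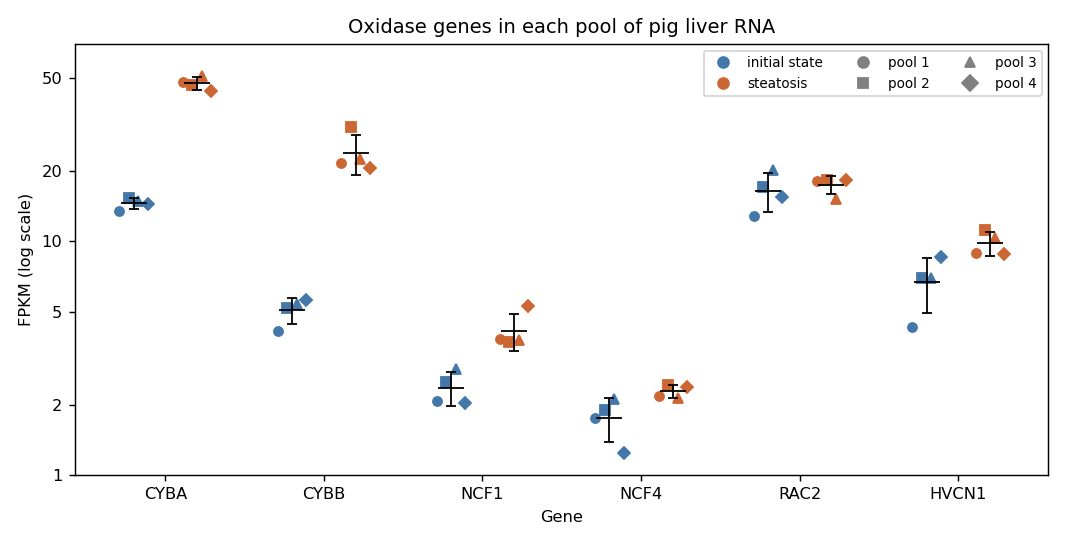
FPKM on a log scale of the 6 oxidase genes in each of 4 pools of the initial state (blue) and 4 of steatosis (orange), with marker shape for pool number, horizontal bars for the mean and vertical bars for the SD. CYBA and CYBB lie in separate clouds, with steatosis means of 47.4 and 23.9 FPKM, while the pools of RAC2 mix.

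All 6 genes passed the filter on low values. Of them 2 were called higher (background 6.01%) and 0 lower. At an unadjusted p under 0.05 (limma) 5 were higher, against 37.8% of tested genes, and 0 lower, against 4.13%. A further gene, NCF1, had an adjusted p under 0.01 with a log2 fold change under 1, so that 3 of the 6 were past the p limit alone, as were 12.9% of all tested genes in the same direction. With HVCN1, 4 were under an adjusted p of 0.05, against 26.7%. The FPKM of 5 of the 6 was higher without overlap between the groups, against 29.6% of tested genes higher and 2.53% lower in this way. The two-sided exact permutation test of each of these 5 gave p = 0.0286, the smallest that 4 pools against 4 allow. That test takes the pools as unpaired, and an exact permutation test on 4 pairs allows no p under 0.125. With median-ratio scaling CYBA and CYBB were still called (3.03% of genes called higher), and 3 genes, CYBA, CYBB and NCF1, were free of overlap, against 13.1% of tested genes. The 6 genes had a median log2 fold change of 0.68, beside 0.25 over the tested genes, or 0.41 beside -0.02 with that scaling.

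**Figure D2:**
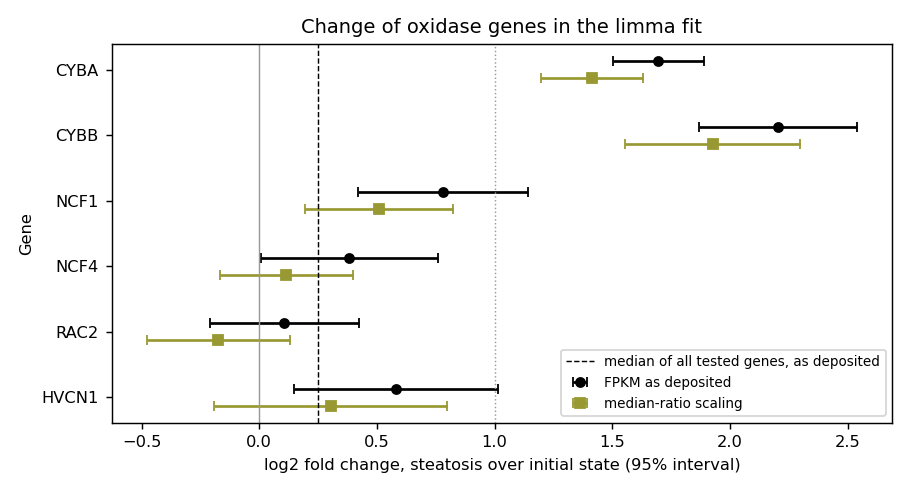
Log2 fold change of steatosis over the initial state from limma with its 95% interval, for FPKM as deposited (black circles) and with median-ratio scaling (green squares); the solid line marks 0, the dashed line the median of all tested genes at 0.25 and the dotted line the limit of 1. CYBA and CYBB lie wholly to the right of the limit under both scalings, at 1.70 and 2.2 as deposited, and RAC2 lies on both sides of 0.

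The order of the transcript levels differed between the groups. In the initial state RAC2 was the most abundant by its mean, followed by CYBA, HVCN1, CYBB, NCF1 and NCF4. The ranges of RAC2 and CYBA overlapped there, as did those of HVCN1 and CYBB and those of NCF1 and NCF4. In steatosis CYBA came first and CYBB second, followed by RAC2, HVCN1, NCF1 and NCF4, and no neighbours in this order overlapped. CYBB was below HVCN1 in each pool of the initial state and above RAC2 in each pool of steatosis.

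The pools of a group did not rank alike for all genes. CYBB and HVCN1 were each lowest in pool 1 and highest in pool 4 of the initial state, and highest in pool 2 and lowest in pool 4 of steatosis. CYBA, RAC2 and the cytosolic subunits NCF1 and NCF4 followed other orders. Leaving out pool 1 of both groups, the number with the muscle transcripts, left CYBA and CYBB as the 2 genes called higher and gave RAC2 a log2 fold change of -0.024.

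Ratios between genes of one library do not depend on the scaling of that library, apart from the small constant added before the logarithm. The ratio of CYBA to CYBB, the 2 chains of one heterodimer, was 3.29, 2.96, 2.78 and 2.59 in the initial pools and 2.22, 1.52, 2.26 and 2.14 in steatosis. It was lower in every steatosis pool, with means of 2.90 ± 0.297 and 2.04 ± 0.348 and a log2 difference of -0.51 (two-sided exact permutation p = 0.0286). That test takes the pools as unpaired. Paired by pool number the ratio was higher in steatosis in 0 of 4 pairs (paired exact permutation p = 0.125, the smallest that 4 pairs allow). CYBB thus gained on CYBA although both rose.

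All 15 pairs of the 6 genes were compared in this way, a step added after the values had been seen. The ratio did not overlap between the groups in 10 of the 15 pairs, each with an exact permutation p of 0.0286 (0.0429 after adjustment over the 15 pairs). With pools paired by number, the paired exact permutation p was 0.125 for each of these 10. These were all 8 pairs of CYBA or CYBB with one of the other 4 genes, CYBA with CYBB, and NCF1 with RAC2. As background, the ratio to CYBA did not overlap for 89.1% of all other tested genes and that to CYBB for 93.8%. The corresponding share was 47.3% for ratios to NCF1, 19.9% for NCF4, 16.7% for RAC2 and 13.6% for HVCN1.

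The ratio of CYBB to RAC2 changed most, from 0.313 ± 0.0401 to 1.37 ± 0.259. CYBA to RAC2 went from 0.906 ± 0.132 to 2.74 ± 0.424, and CYBB to HVCN1 from 0.783 ± 0.128 to 2.42 ± 0.252. CYBB was below RAC2 in all 4 initial pools and above it in all 4 steatosis pools, while CYBA was above RAC2 in 1 of the 4 initial pools and in all 4 of steatosis. Between the cytosolic subunits, the ratio of NCF1 to NCF4 was 1.37 ± 0.192 and 1.81 ± 0.293 and overlapped (exact permutation p = 0.0571, adjusted 0.0779). Paired by pool number it was higher in 4 of 4 pairs (paired exact permutation p = 0.125, the smallest that 4 pairs allow).

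In bulk RNA, a change in the number of cells of a type and a change in RNA per cell cannot be told apart. Several general leukocyte transcripts were also higher in steatosis. Of 6 genes that mark leukocytes in general (PTPRC, CD53, LCP1, CORO1A, ITGB2 and LAPTM5), 3 were called higher, beside 6.01% of all tested genes, and 0 lower. In 4 of the 6 the FPKM was higher without overlap, beside 29.6%. The summed level of the 6 went from 74.1 to 112 FPKM in the initial state to 193 to 239 FPKM in steatosis. Within this list the log2 fold change ran from 0.23 for CORO1A and 0.54 for PTPRC, neither called, to 1.51 for ITGB2.

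Of 14 macrophage markers 3 were called higher, beside 6.01% of all tested genes, and 0 lower. The called ones were the lysosomal protein CD68 (log2 fold change 2.01) and the scavenger receptors MARCO (3.33) and MSR1 (2.35). The others included the complement genes C1QA (0.07) and C1QB (0.64), and the sum of the list was 1024 to 1218 FPKM before and 1421 to 1624 FPKM in steatosis. For neutrophils, 1 of 5 tested markers was called higher, CSF3R (1.49), beside 6.01% of all tested genes, and 0 lower. The other 4, CXCR2 (0.18), S100A12 (0.06), S100A8 (-0.17) and S100A9 (-0.66), were not called, and the median of the list was 0.06. The sum of 10 markers was 5.86 to 12.8 and 9.44 to 15.01 FPKM. The granule genes MPO, ELANE and MMP8, which define maturing neutrophils, were near 0 and did not pass the filter. MPO was at 0 to 0.02 FPKM in the initial state and 0.11 to 0.26 FPKM in steatosis, without overlap, ELANE at 0 to 0.11 and 0.11 to 0.35 FPKM, and MMP8 at or under 0.02 FPKM in every library.

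Lymphocyte markers gave another picture. Of 4 tested B cell markers 1 was called lower, beside 0.334% of all tested genes, and 0 higher. This was MS4A1, with a log2 fold change of -1.23 (limma adjusted p = 0.00937). The sum of 7 markers was 4.31 to 10.1 FPKM in the initial state and 3.0 to 3.78 FPKM in steatosis. Of 10 markers of T and NK cells only NKG7 was called, higher at 1.36, beside 6.01% of all tested genes called higher. The sum of the 10 was 37.9 to 69.2 and 76.2 to 85.0 FPKM. Without NKG7 the sum was 26.7 to 54.1 and 41.9 to 49.7 FPKM and overlapped, and the median log2 fold change of the 10 was 0.29. The part of these cell types in the values of RAC2, HVCN1, NCF1 and NCF4 was not tested.

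Each gene was then set against the mean log2 level of the leukocyte list in the same library, a mean that was itself 1.03 higher in steatosis. CYBA lay at 0.37, 0.17, -0.15 and 0.08 relative to that mean in the initial state and at 0.89, 0.65, 0.83 and 0.77 in steatosis. CYBB lay between -1.60 and -1.28 and then between -0.34 and 0.05. Both were thus higher relative to leukocyte genes, by 0.67 and 1.18, without overlap, whereas 1.48% of all tested genes were.

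RAC2 relative to the same mean lay between 0.17 and 0.32 in the initial state and between -0.91 and -0.49 in steatosis. It was lower by 0.92, as were NCF4 by 0.65 and HVCN1 by 0.45, all 3 without overlap. The groups of NCF4 were separated only by the step from -3.37 in pool 4 of the initial state to -3.39 in pool 4 of steatosis. Most tested genes, 63.2%, were lower in this sense, so that the count of 3 among 6 is no higher than the background. NCF1 was lower by 0.25 and overlapped (exact permutation p = 0.229). For the 5 genes without overlap the exact permutation p was 0.0286, or 0.0442 when adjusted over all tested genes. That adjusted value is the same for every gene at the smallest p. It follows from the share of genes that reach it, here 63.2% lower and 1.48% higher, and does not single out these 5.

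The outcome depended on the reference. Against the 14 macrophage markers CYBA and CYBB were higher by 0.82 and 1.33 without overlap, against 2.38% of tested genes, and of the 6 only RAC2 was lower without overlap, by 0.77 (53.1% of tested genes). The exact permutation p was 0.0286, or 0.0515 adjusted over all tested genes. Against PTPRC alone, CYBA and CYBB were higher by 1.16 and 1.67 without overlap (4.24% of genes), RAC2 was lower by 0.43 (13.4%), and NCF1, NCF4 and HVCN1 overlapped. For the 3 genes without overlap the exact permutation p was 0.0286, or 0.162 adjusted over all tested genes. Here and for the macrophage markers, the adjusted value follows from the share of all tested genes at that smallest p.

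Against CD68 alone (gene 103158530), a reference added after the values had been seen, CYBA differed by -0.32 (exact permutation p = 0.343) and CYBB by 0.19 (exact permutation p = 0.429). Both overlapped, and 0.19% of tested genes were higher without overlap. NCF1, NCF4, RAC2 and HVCN1 were lower than CD68 by 1.23, 1.63, 1.91 and 1.43 without overlap, as were 85.1% of all tested genes. A second row of the table, LOC100520753, is also named macrosialin, the protein of CD68, and was at 0.07 to 1.29 FPKM in the initial state and 5.02 to 26.9 FPKM in steatosis. This second row is the gene that the paper lists as CD68 among its selected transcripts. Against this second row, all 6 genes had negative differences, from -4.73 for RAC2 to -2.63 for CYBB. Of them 5 were lower without overlap, as were 97.6% of tested genes, and CYBB overlapped. Since 0% of tested genes were higher without overlap against it, that row left little room for an excess of any gene. The excess of CYBA and CYBB was therefore an excess over the leukocyte mean, the macrophage mean and PTPRC. It was not seen against either macrosialin row, both added as references after the values had been seen.

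**Figure D3:**
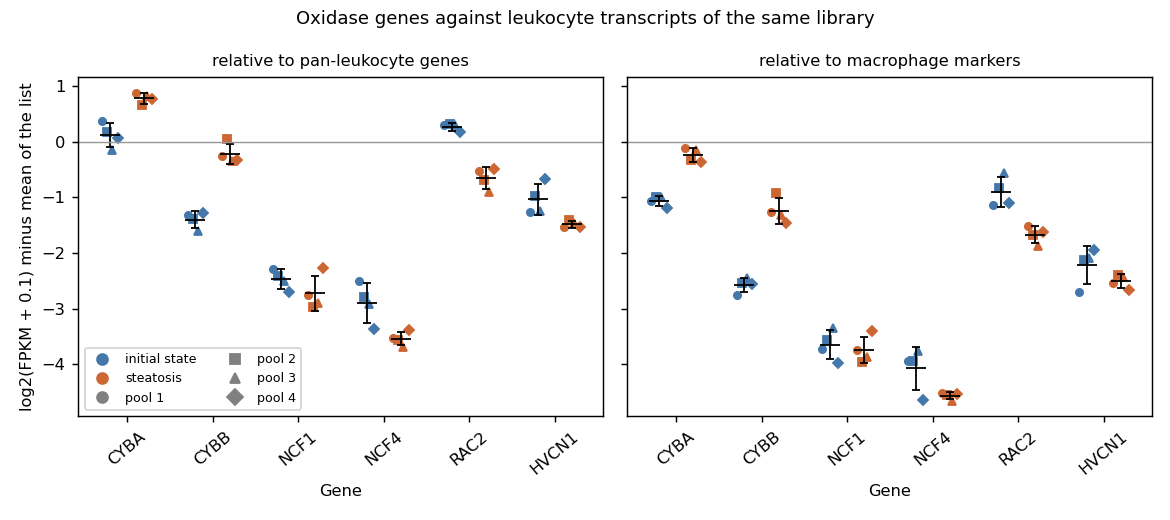
Log2(FPKM + 0.1) of each oxidase gene minus the mean of 6 pan-leukocyte genes (left) or of 14 macrophage markers (right) in the same library, by pool, with the mean and SD of 4 pools per group. On the left CYBA and CYBB are higher in steatosis by 0.67 and 1.18, and RAC2 is lower by 0.92.

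Other genes of the pathway were described by lists. The list of assembly and activation holds 26 genes, all tested, of which 4 were called higher, beside the 6.01% of all tested genes, and 0 lower (limma, 17 higher, beside 37.8%, and 0 lower at an unadjusted p under 0.05). In 15 of the 26 the FPKM was higher without overlap, beside 29.6%. Its median log2 fold change was 0.53, or 0.25 with median-ratio scaling, where 2 were called. The called genes were PAK1 (1.59), a kinase driven by Rac that can phosphorylate p47phox, the tyrosine kinase BTK (1.33), the Rac exchange factor VAV1 (1.09) and PRKCB (1.03), a protein kinase C that phosphorylates p47phox. VAV1 and PRKCB were not called with median-ratio scaling (0.81 and 0.77). BTK went from 1.91 to 2.67 FPKM over the pools of the initial state to 4.93 to 7.08 FPKM in steatosis.

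RAC1, the widely expressed relative of RAC2, was far more abundant, at 64.8 to 82.2 FPKM in the initial state and 87.9 to 109 FPKM in steatosis, without overlap and with a log2 fold change of 0.46 (limma adjusted p = 0.013). ARHGDIA, which holds Rac proteins in the cytosol, had a log2 fold change of 0.52 (limma adjusted p = 0.00538) and was not called. CYBC1, a chaperone of the flavocytochrome (listed as C12H17orf62, chr12:656776-662519), was at 12.3, 13.2, 13.7 and 10.4 FPKM and then at 18.0, 13.4, 14.4 and 14.4 FPKM. The groups overlapped, and its log2 fold change was 0.28 (limma adjusted p = 0.117).

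Catalytic chains of the other NADPH oxidases were scarce. NOX1 was listed at 0 in all pools of the initial state and reached 0.03 FPKM in steatosis, NOX3 reached 0.02, NOX4 0.07 and NOX5 0.10 FPKM in any library. DUOX1 lay between 0.09 and 0.56 FPKM and DUOX2 between 0.09 and 0.66 FPKM. Of the 10 genes in this list 2 passed the filter and 0 were called (limma, 1 lower, beside 4.13% of all tested genes, at an unadjusted p under 0.05). DUOX2 had a log2 fold change of -1.01 (limma adjusted p = 0.0603) and the activator NOXA1 0.36 (limma adjusted p = 0.284). CYBB, at 20.5 FPKM or more in steatosis, was thus the most abundant catalytic chain of the family in every library.

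Of 8 genes that supply NADPH 1 was called higher, beside 6.01% of all tested genes, and 0 lower (limma, 6 higher, beside 37.8%, and 1 lower, beside 4.13%, at an unadjusted p under 0.05). PGD, an enzyme of the oxidative pentose phosphate pathway, went from 14.2 to 16.0 FPKM over the initial pools to 29.1 to 34.7 FPKM (log2 fold change 1.04, limma adjusted p = 7.5e-05). It did not pass the limit of 1 with median-ratio scaling. IDH1, the cytosolic NADP isocitrate dehydrogenase, went the other way, from 204 to 230 FPKM to 104 to 143 FPKM (-0.76, limma adjusted p = 0.001), and was called lower, at -1.04, with that scaling. TALDO1 had a log2 fold change of 0.49 (limma adjusted p = 0.00177).

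Of 15 tested genes that handle superoxide and peroxide 3 were called higher, beside 6.01% of all tested genes, and 0 lower (limma, 10 higher, beside 37.8%, and 0 lower at an unadjusted p under 0.05), with a list median of 0.35. LPO, the lactoperoxidase that uses hydrogen peroxide, was at 0.06, 0.02, 0.12 and 0.16 FPKM in the initial state and at 5.18, 3.10, 0.91 and 4.49 FPKM in steatosis. All steatosis pools were above the initial ones, with pool 3 well below the rest, and the log2 fold change was 4.03 (SE 0.49, limma adjusted p = 0.000448). The extracellular glutathione peroxidase GPX3 (1.17) and thioredoxin TXN (1.03) were called as deposited and not with median-ratio scaling. CAT and SOD1, abundant in hepatocytes, had log2 fold changes of 0.25 and 0.13 and were not called (limma adjusted p = 0.068 and 0.553).

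Of 8 tested transcription factors that act on oxidase genes 1 was called higher, beside 6.01% of all tested genes, and 0 lower. At an unadjusted p under 0.05 (limma) 7 were higher, beside 37.8%, and 0 lower. In 5 of them the FPKM was higher without overlap, beside 29.6%. SPI1, which encodes PU.1, the myeloid factor known to drive CYBB and the cytosolic subunits, was at 13.99, 16.1, 16.1 and 18.3 FPKM in the initial state and at 47.4, 42.8, 45.3 and 47.0 FPKM in steatosis. The groups stood apart and the steatosis pools were close to each other, with a log2 fold change of 1.5 (SE 0.10, limma adjusted p = 1.7e-05), or 1.22 with median-ratio scaling. CEBPB (-0.44, limma adjusted p = 0.175) overlapped between the groups, and IRF2 (0.29, adjusted p = 0.0505) did not overlap and was not called. The median of the list was 0.52.

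**Figure D4:**
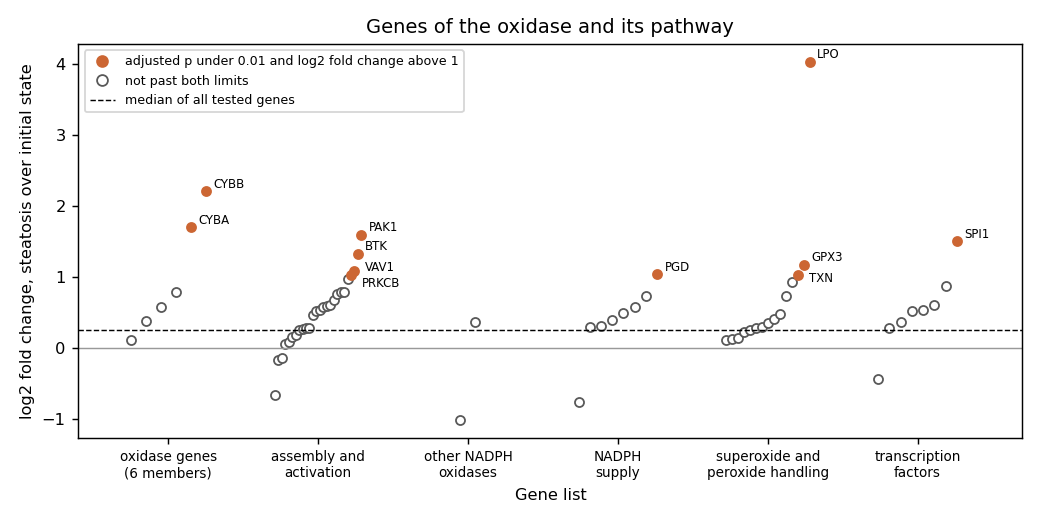
Log2 fold change of steatosis over the initial state from limma for each tested gene of the 6 oxidase genes and of 5 pathway lists, filled where the adjusted p was under 0.01 and the log2 fold change above 1; the dashed line is the median of all tested genes at 0.25. CYBB at 2.2 and PAK1 at 1.59 stand at the top of their columns, and LPO at 4.03 is the highest point.

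The genes most like each oxidase gene were sought over the 8 libraries, as the root mean square difference of log2 levels after each gene was centred on its own mean, among 11325 other genes with a mean of at least 1 FPKM, the 6 themselves left out. For CYBA these were LAT2 (0.0902), PSAP (0.103) and PLTP (0.114). For CYBB they were ITGB3 (0.145), SLC43A3 (0.155) and the lysosomal protease gene CTSD (0.156). For NCF1 they were TSPAN9 (0.0854), TRIQK (0.0864) and PTGS1 (0.0878), and for NCF4 PCGF3 (0.0512), AKAP10 (0.0528) and ARAP1 (0.0546). For RAC2 they were STRBP (0.0313), FBXL12 (0.0553) and IKZF3 (0.0617), and for HVCN1 HSP70.2 (0.0884), BBOX1 (0.125) and SNX6 (0.13).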

How the data were processed

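Liver RNA of 4 pools per group was sequenced by the authors as poly-A libraries in paired-end reads, mapped with HISAT2 2.0.4 to Sus scrofa 11.1 and assembled with StringTie. New coding transcripts were added to the reference, and expression was estimated with Bowtie2 2.2.5 and RSEM 1.2.12, the versions being those of the submitters' processing notes. The authors deposited FPKM for 17778 known genes and 325 new transcripts, normalized for length and mapped fragments, with no scaling between libraries stated. The authors also deposited 4 comparisons, each of 1 initial and 1 steatosis pool of equal number, with fold changes, p-values and FDR. Only the gene length column of these was used here.

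FPKM was taken as deposited. Genes that reached 0.3 FPKM in 4 or more of 8 libraries were tested with limma 3.58.1 (R 4.3.3, mean-variance trend, group as the only term) on log2(FPKM + 0.1), a scale that understates the change of low genes. The fit was tested on simulated data for steatosis against the initial state over 13175 genes, where it called 81 of 92 genes changed by 2 on the log2 scale, 104 of 108 changed by 3, and 3 unchanged genes. Changes near the limit of 1 and a shift common to all genes were not simulated. Single values and ratios were compared with two-sided exact permutation tests (Python 3.11.15, scipy 1.17.1). These took the pools as unpaired, also against the leukocyte and macrophage references, unless a paired test is named. Precision is the SD between pools, since counts were not used; the smallest steps between FPKM values of genes of 400 to 600 bp placed the depth of each library between 91.9% and 100% of the deepest. Coordinates and synonyms are those of RefSeq for Sscrofa11.1, matched by gene number.

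The oxidase genes and all gene lists were chosen with earlier results of these data known. Some genes of the pathway are not reported here and were left out of the lists. The genes named are the 6, CYBC1, every called gene of the 5 pathway lists with at most 2 others of each, and a few markers. The remaining marker genes, NOX1, NOX3, NOX4, NOX5, DUOX1 and TCTN1 were named after their values were seen, and so were the pair comparison, the 2 macrosialin references and the analysis without pool 1 added.

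The labels do not say that equal pool numbers hold the same pigs, although the deposited comparisons set pools of equal number against each other. Deviations from the group means correlated at 0.163, 0.350, 0.317 and 0.247 between equal numbers and at -0.203 to 0.0276 between unequal ones, so the numbers were taken to pair the pools and a fit blocked on the pool number was run as an alternative. Other alternatives changed the scaling, pseudocount, filter or limit, or left out 1 library.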

Additional observations from a re-analysis of the deposited data

Results flagged for a closer look

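Of 36 groups of 4 pools examined, 3 held a pool far from the other 3 by Dixon's test, where chance alone marks about 1 group in 20. NCF1 in pool 4 of steatosis was at 5.27 FPKM, above the other steatosis pools at 3.70 to 3.8 FPKM. RAC2 in pool 3 of steatosis was at 15.2 FPKM, below the other steatosis pools at 18.2 to 18.4 FPKM. NCF4 relative to the macrophage markers was at -4.65 in pool 3 of steatosis.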

How the results depend on the processing

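CYBA and CYBB were the 2 oxidase genes called higher under every alternative run, with log2 fold changes of 1.42 to 1.73 and 1.93 to 2.27 over 17 alternatives. RAC2 turned from 0.11 to -0.11 with upper quartile scaling, -0.17 with median-ratio scaling, -0.0052 without pool 1 of the initial state (range -0.0052 to 0.22 with 1 library left out) and -0.024 without pool 1 of both groups. NCF1 ranged from 0.51 to 0.87 (limma adjusted p from 0.00585 to 0.031), NCF4 from 0.12 to 0.48 and HVCN1 from 0.30 to 0.71 (adjusted p from 0.0221 to 0.358).

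The count of genes called higher (792) was 395 with a pseudocount of 1, 449 with upper quartile scaling, 399 with median-ratio scaling and 625 to 778 when 1 library was left out. The count called lower (44) was 67, 86 with the same scalings, 76 at an adjusted p under 0.05, and 26 to 50 when 1 library was left out, with 28 without pool 2 and 26 without pool 4 of steatosis. Among the assembly genes 2 in place of 4 were higher with a pseudocount of 1 and with both scalings, and 3 to 5 with 1 library left out. Genes of NADPH supply called higher went from 1 to 0 under those 3 alternatives and without pool 2 of steatosis (range 0 to 1), and 1 was lower with median-ratio scaling in place of 0. Genes handling superoxide and peroxide called higher went from 3 to 1 with both scalings and without pool 1 of both groups, and to 2 to 3 with 1 library left out. Among the transcription factors 1 was called higher under every alternative run.

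The number of oxidase genes free of overlap went from 5 to 3 with median-ratio scaling. Relative to the leukocyte genes, 1 gene was lower in place of 3 with PTPRC as the reference, and 0 higher in place of 2 with CD68. With the second macrosialin row, LOC100520753, as the reference, 0 were higher and 5 lower, beside 0% and 97.6% of all tested genes. Relative to the macrophage markers, 0 were higher in place of 2 with CD68 or LOC100520753, and in place of 1 gene lower there were 4 with CD68, 5 with LOC100520753 and 2 with a pseudocount of 1, without pool 1 or without pool 4 of the initial state (range 1 to 2). With the pool number as a replicate block 2 oxidase genes were called higher, with adjusted p of 1.27e-04 for CYBA and 1.83e-04 for CYBB, and no other call among the oxidase genes or pathway lists changed. When 1 library is left out, the smallest exact permutation p is 0.0571. FPKM carries no read numbers, so the counting error of the lowest genes is unknown.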
